A study of Homo sapiens with 4 samples.

Results

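Transcripts of 9 human genes of deoxynucleotide supply and gemcitabine metabolism were described in SW1990 and PANC-1 pancreatic cancer cells, without and with radiation. The genes were chosen by name, and all 9 were found among the 58174 genes of the deposited table. They were RRM1, RRM2 and RRM2B of ribonucleotide reductase, TYMS and DUT of the thymidylate pathway, the salvage kinases TK1 and DCK, thymidine phosphorylase TYMP and the deoxynucleotide hydrolase SAMHD1. The study sequenced the transcriptomes of irradiated dying tumor cells to learn which signals radiation changes, with 1 RNA library for each of 4 groups. The groups were unirradiated SW1990 cells, SW1990 cells given 10 Gy of X-rays, unirradiated PANC-1 cells, and PANC-1 cells given 10 Gy. SW1990 and PANC-1 are established lines grown from human pancreatic cancers, and the sample records name no engineered allele in either. SW1990 was kept in 1640 medium and PANC-1 in DMEM, both with serum, so cell line and medium cannot be told apart. The time between irradiation and RNA extraction is not given in the sources used here. With 1 library per group no difference between an irradiated and an unirradiated library has a replicate check, and intervals given below cover counting error only. In bulk RNA, a smaller share of cells expressing a gene and less RNA per cell cannot be told apart.

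Cells make deoxynucleotides along a de novo and a salvage route. Ribonucleotide reductase, built from the large subunit RRM1 with either RRM2 or RRM2B as the small subunit, reduces ribonucleotides, and TYMS then turns deoxyuridylate into thymidylate while DUT removes dUTP before it can enter DNA. Salvage kinases phosphorylate deoxynucleosides taken up from outside, and DCK in this way also activates gemcitabine, a deoxycytidine analog used against pancreatic cancer whose diphosphate inhibits ribonucleotide reductase. TYMP splits thymidine, and SAMHD1 breaks deoxynucleoside triphosphates back down.

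Many genes of this pathway are transcribed around S phase, through promoters that hold the letters bound by the E2F and NF-Y families of factors, and the stretches shown here are examples of such letters in genes whose values the results turn on. Promoter windows from RefSeq on GRCh38.p14, which run from 250 bases before to 50 bases after an annotated start, were matched by symbol to 8 of the 9 genes, all but RRM2B. The letters searched, on both strands, were CCAAT, known as the NF-Y box and read as ATTGG on the other strand, and TTTNNCGC, a form of the E2F site read as GCGNNAAA on the other strand. Each stretch of 30 bases is written 5′ to 3′ on the strand of its gene, with the matched letters in capitals.
TK1, chr17:78187112-78187141, minus strand: ggccgggcgctgATTGGccccatggcggcg
TK1, chr17:78187081-78187110, minus strand: ggccggctcgtgATTGGccagcacgccgtg
RRM2, chr2:10122604-10122633, plus strand: ggcaaggcgcagCCAATgggaagggtcgga
RRM2, chr2:10122634-10122663, plus strand: ggcatggcacagCCAATgggaagggccggg
DUT, chr15:48332159-48332188, plus strand: gaaatttcggtTTTGGCGCgctccctgcgg
DCK, chr4:70993659-70993688, plus strand: gctgcctccgcGCGCCAAAgtcaaaccccg
TYMS, chr18:657603-657632, plus strand: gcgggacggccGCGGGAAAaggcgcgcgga
CCAAT letters were found in windows of 5 of the 8 genes (RRM1, RRM2, TK1, TYMP and SAMHD1), in 7 of all 14 windows of the 8 genes, and in 34.6% of all 35116 promoter windows of the same length. Windows of a gene can overlap, and the 2 windows of TYMP hold the same CCAAT letters. TTTNNCGC letters were found in the other 3 (TYMS, DUT and DCK), in 3 of the 14 windows, and in 6.89% of all windows. No gene of the 8 had both in its windows. A match describes letters only and says nothing of binding.

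All 9 genes are protein coding, and their positions are those of the deposited table on GRCh38. RRM1 lies on chromosome 11 from 4094707 to 4138876, RRM2 on chromosome 2 from 10122328 to 10131419 and RRM2B on chromosome 8 from 102204502 to 102239118. TYMS lies on chromosome 18 from 657604 to 673578, and DUT on chromosome 15 from 48331011 to 48343373. TK1 lies on chromosome 17 from 78174075 to 78187233, and DCK on chromosome 4 from 70992538 to 71030914. TYMP lies on chromosome 22 from 50525752 to 50530056, and SAMHD1 on chromosome 20 from 36890229 to 36951843. The SW1990 libraries held 17851815 (unirradiated) and 18305682 (10 Gy) reads counted on genes, and those of PANC-1 held 23323266 and 20026595. Some exons are shared with other genes, and the strand setting of the counting is not given in the sources used here. TYMS shares 967 exon bases with ENOSF1 on the opposite strand, which had between 1602 and 2192 counts. DCK shares 199 bases with MOB1B on its own strand (806 to 986 counts), and TYMP shares 339 bases with SCO2 on its own strand (0 to 47 counts). SAMHD1 shares 1159 bases with TLDC2 on the opposite strand, at 0 counts in PANC-1 and 80 and 121 in SW1990 cells, and DUT shares 533 bases with the antisense gene AC023355.1, at 16 to 90 counts. Pseudogene copies named after DUT, RRM2 and TYMS together held at most 1.28% of the parent gene's counts in any library. Values of these genes are therefore uncertain to the extent that reads were split among them.

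The epithelial keratins KRT8, KRT18 and KRT19 were abundant in both lines, at 5490 to 53301 counts. EPCAM had 7348 and 7552 counts in SW1990 (unirradiated and irradiated) and 108 and 113 in PANC-1 cells, whereas the mesenchymal filament gene VIM had 17 and 0 in SW1990 and 82406 and 75166 in PANC-1 cells. The other mesenchymal markers were also higher in PANC-1 cells, where ZEB1 had 1394 and 1084 counts and CDH2 had 333 and 301. In SW1990 cells CDH2 had 0 and 4 counts, and ZEB1, a repressor of epithelial genes, rose from 14 to 66 counts after radiation (log2 fold change 2.23, called by the criteria given below). ZEB1 met the FPKM limit of those criteria there only through the irradiated library, where it was higher (0.314 and 1.33 FPKM). The epithelial cadherin CDH1 had 9906 and 14345 counts in SW1990 and 59 and 65 in PANC-1, so that of the 5 epithelial markers the keratins were abundant in PANC-1 and EPCAM and CDH1 were low. Of the leukocyte markers, PTPRC had at most 2 counts, CD3E had 0 and CD14 had 26 to 56. COL1A2 and DCN of fibroblasts had 0 counts in every library, COL1A1 had 103 to 1315, and the endothelial PECAM1 and CDH5 had at most 8.

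Within a library, genes were compared by FPKM, a level scaled to transcript length and library size. TYMS, the thymidylate synthase that 5-fluorouracil targets, was the most abundant of the 9 in every library. Its FPKM was 192.5 and 172 in SW1990 cells (unirradiated, then irradiated) and 106 and 121 in PANC-1, and it lay above 96.6% or more of the genes with an FPKM of at least 1. The reductase subunits RRM2 and RRM1 followed, in opposite order in the lines. RRM2 (110.0 and 103 FPKM) stood above RRM1 (73.0 and 80.4) in SW1990 cells, and RRM1 (58.2 and 76.8) above RRM2 (49.4 and 60.3) in PANC-1 cells. TK1 came next in every library, at 56.6 and 72.2 FPKM in SW1990 and 24.8 and 41.6 in PANC-1 cells. DUT, RRM2B, DCK and SAMHD1 had between 4.89 and 22.03 FPKM, and the order among those a few FPKM apart differed between libraries. TYMP was near 6 FPKM in PANC-1 cells (5.98 and 5.81) and was the lowest of the 9 in SW1990 cells (0.00202 and 0.196), where it rested on 1 and 8 counts. Without replicates these levels have no error, so it was not tested which neighbours in the order differ.

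**Figure D1:**
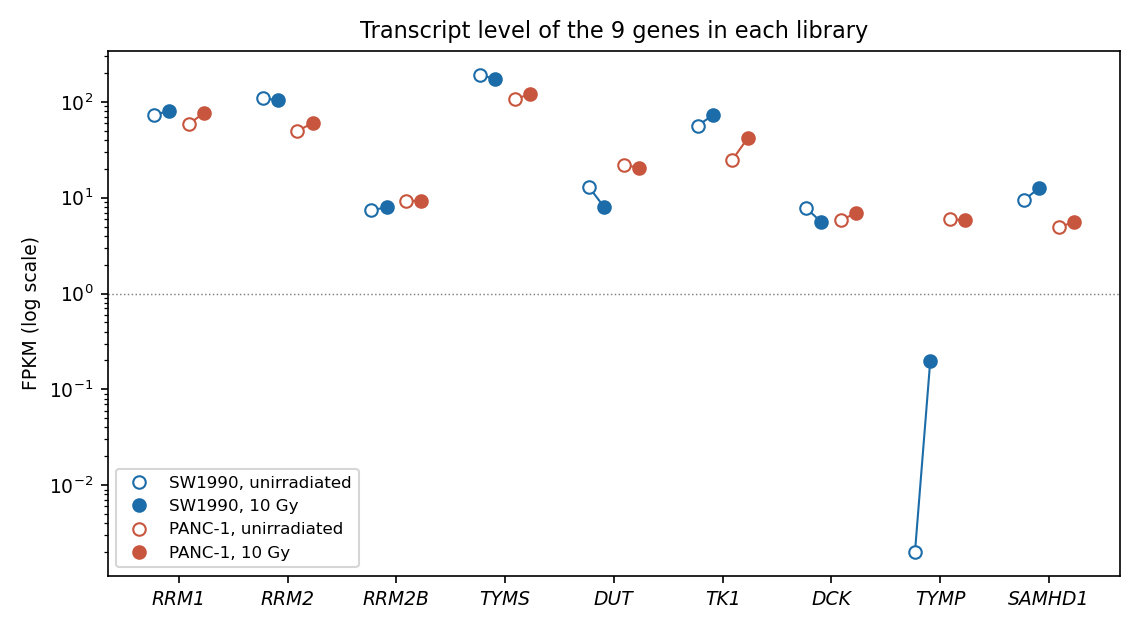
FPKM of each of the 9 genes (log axis) in the 4 libraries, with open points for unirradiated and filled points for 10 Gy libraries, a line joining the pair of a cell line and a dotted line at an FPKM of 1. TYMS is highest in every library (106 to 192.5), and TYMP is at 0.00202 and 0.196 in SW1990 against 5.98 and 5.81 in PANC-1.

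The first comparison asked how transcripts of the 9 genes differed between the irradiated and the unirradiated library of each line. None of them passed the criteria taken from the study's methods, a fold change above 2 with a q-value below 0.001 on the reads among genes with an FPKM of at least 1. The numbers were 0 of 8 genes tested in SW1990 cells, where 4.2% of all 15731 genes tested were called, and 0 of 9 in PANC-1 cells, where 4.77% of 15159 were called. TYMP was not tested in SW1990 cells because its FPKM was below 1 in both libraries. None of the genes tested (8 and 9) passed a fold change of 1.5 by TMM-scaled counts either, against 20.3% of all genes tested in SW1990 and 21.6% in PANC-1 cells. With libraries scaled by total counts, DCK in SW1990 (log2 fold change -0.61) and TK1 in PANC-1 cells (0.66) were past 1.5-fold. By FPKM, DUT in SW1990 (log2 fold change -0.70) and TK1 in PANC-1 cells (0.74) were past 1.5-fold.

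Of the ribonucleotide reductase genes, RRM1 differed most in PANC-1 cells. The largest value in SW1990 cells was that of RRM2B by counts and that of RRM1 by FPKM (0.14, against 0.11 for RRM2B). RRM1, the large subunit, had 3743 counts in unirradiated and 3866 in irradiated SW1990 cells, with a log2 fold change of 0.04 on TMM-scaled counts (95% counting interval -0.03 to 0.11). In PANC-1 cells it had 3930 and 4509 counts, a log2 fold change of 0.33 (0.27 to 0.39). The irradiated library was thus 25.6% higher in PANC-1 and 2.80% higher in SW1990 cells. RRM2, the small subunit made in S phase, had 4535 and 4763 counts in SW1990 cells (log2 fold change 0.06, 0.01 to 0.12) and 3111 and 2946 counts in PANC-1 cells (0.05, -0.02 to 0.12). By FPKM the same gene gave -0.09 in SW1990 and 0.29 in PANC-1 cells, so its direction in SW1990 cells depended on the measure. RRM2B, the small subunit that p53 induces after DNA damage, had 498 and 594 counts in SW1990 cells (0.25, 0.07 to 0.42). In PANC-1 cells it had 875 and 723 counts (-0.145, -0.29 to -0.0013), and 0.02 by FPKM. RRM2B was thus higher in the irradiated SW1990 library, and in PANC-1 its sign depended on the measure.

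In the thymidylate pathway, both genes were lower in the irradiated SW1990 library. TYMS had 6262 and 5696 counts in SW1990 (log2 fold change -0.14, -0.20 to -0.09) and 4629 and 4436 in PANC-1 cells (0.07, 0.01 to 0.13). DUT, which hydrolyses dUTP, had 397 and 278 counts in SW1990 cells (-0.52, -0.75 to -0.30). In PANC-1 cells DUT had 871 and 779 counts (-0.03, -0.17 to 0.11), and 0.06 when libraries were scaled by total counts. Of 9347 SW1990 genes with a mean of at least 250 counts, 10.6% had a log2 fold change at least as large in size as that of DUT, against 56.3% for TYMS. The antisense gene that shares exon bases with DUT had 53 and 16 counts in SW1990 cells, and its part in the DUT counts was not tested.

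The salvage kinases held the largest log2 fold changes by counts of the genes tested, DCK in SW1990 and TK1 in PANC-1 cells. TK1, the cytosolic thymidine kinase of S phase, had 1869 counts in unirradiated and 2543 in irradiated SW1990 cells, with a log2 fold change of 0.44 (0.35 to 0.52). In PANC-1 cells it had 1127 and 1534 counts, a log2 fold change of 0.58 (0.46 to 0.69). TK1 was thus 35.4% and 49.0% higher in the irradiated library. Differences of this size were not rare, since 14.6% of genes with such a mean count in SW1990 and 11.3% of 9620 in PANC-1 had one at least as large. DCK, the kinase that activates gemcitabine, had 466 and 313 counts in SW1990, with a log2 fold change of -0.58 (-0.79 to -0.37), which 8.39% of these genes reached or passed in size. In PANC-1 cells DCK had 396 and 414 counts, a log2 fold change of 0.19 (-0.01 to 0.40). The DCK transcript was 1.496-fold lower in the irradiated SW1990 library, and its interval in PANC-1 cells included 0.

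Of the breakdown enzymes, SAMHD1 was higher in both irradiated libraries. It had 963 and 1235 counts in SW1990 (log2 fold change 0.35, 0.23 to 0.48) and 614 and 667 in PANC-1 cells (0.25, 0.09 to 0.41). TLDC2, on the opposite strand, went from 80 to 121 counts in SW1990 and had 0 in PANC-1, and its part in the SAMHD1 counts was not tested. TYMP had 298 and 239 counts in PANC-1 cells (-0.19, -0.44 to 0.06), an interval that included 0. In SW1990 cells it had 1 and 8 counts, a log2 ratio of 2.99 with a counting interval from 0.09 to 8.46, too wide to give a size.

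**Figure D2:**
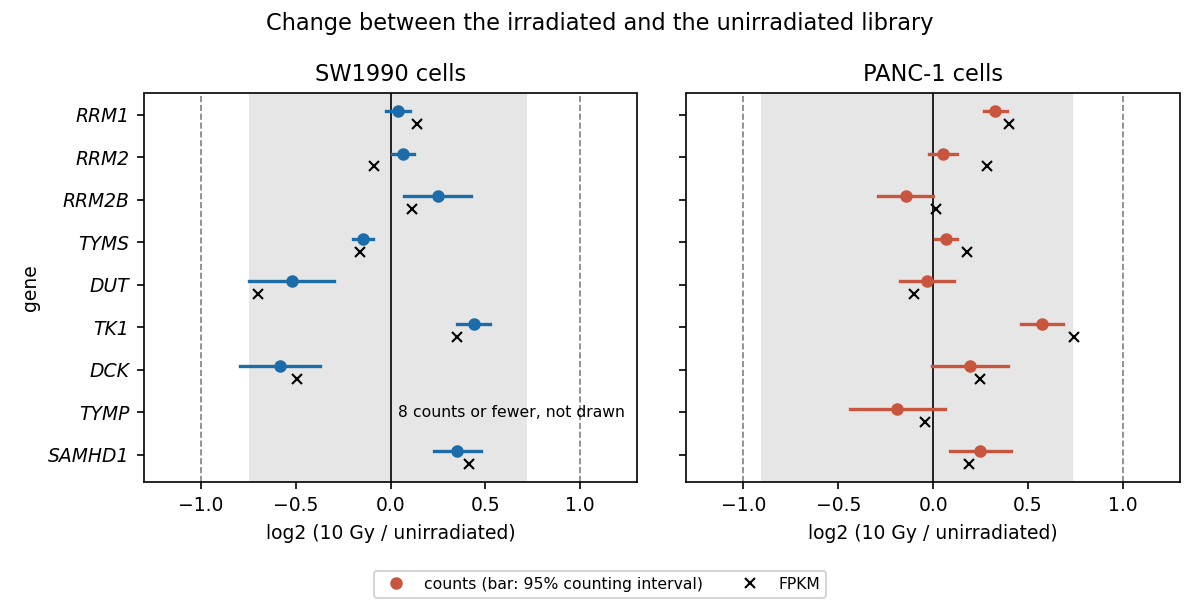
Log2 fold change of each gene, 10 Gy over unirradiated library, in SW1990 (left) and PANC-1 cells (right), with points and 95% counting intervals from TMM-scaled counts and crosses from FPKM. Dashed lines mark a fold change of 2, the grey band holds the middle 95% of genes with a mean of at least 250 counts (-0.74 to 0.71 in SW1990, -0.90 to 0.73 in PANC-1), and every count value drawn lies within it. TYMP in SW1990 cells, at 1 and 8 counts, is not drawn.

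Taking the genes as a list, 5 of 8 tested were higher and 3 lower in irradiated SW1990 cells, and their median log2 fold change was 0.05 (4 higher and 4 lower by FPKM). In PANC-1 cells 6 of 9 were higher and 3 lower, with a median of 0.07 (7 higher and 2 lower with total counts or FPKM, where 57.8% and 56.6% of all genes were higher). Over all genes tested, 49.3% were higher in SW1990 and 48.3% in PANC-1 cells, with medians of -0.01 and -0.02. The 3 genes lower by counts in irradiated SW1990 cells were TYMS, DUT and DCK, which are also those with TTTNNCGC letters in the windows shown above, a description of few genes that was not tested. By FPKM RRM2, which has CCAAT and no TTTNNCGC letters, was lower there too (-0.09). In PANC-1 cells these genes gave 0.07, -0.03 and 0.19.

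Fitting the 4 libraries jointly, with terms for line and treatment, gave the only estimate of spread between libraries. By edgeR's quasi-likelihood test with Benjamini-Hochberg adjustment, 0 of 18180 genes passed an adjusted p of 0.05 for radiation, and 833 (4.58%) had an unadjusted p below 0.05. DESeq2 called 39 genes, none of them among the 9, of which 2 (DCK and TYMP) were given no adjusted p, and limma-voom called 0. The fit has 1 residual degree of freedom and counts as error whatever the lines did differently. TK1, higher in the irradiated library of both lines, had the lowest p of the 9, with a log2 fold change of 0.52 and an adjusted p of 0.936 in edgeR's quasi-likelihood test (unadjusted p = 0.0157). It was the only one of the 9 with an unadjusted p below 0.05. SAMHD1 gave 0.32 and RRM1 0.20, both with an adjusted p of 0.936 by edgeR, and the other 6 genes had adjusted p-values from 0.938 to 0.992.

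The responses of the lines were then set side by side, without a test, since 1 library per group leaves no residual degrees of freedom for an interaction. The log2 fold change of DCK in SW1990 cells minus that in PANC-1 cells was -0.78 (95% counting interval -1.06 to -0.49), the widest gap of the 8 genes tested in both lines. For DUT the difference was -0.49 (-0.75 to -0.23) and for RRM2B it was 0.39 (0.17 to 0.62). RRM1 gave -0.29 (-0.38 to -0.20) and TYMS -0.21 (-0.29 to -0.13). These 5 genes differed between the lines by more than counting error, whereas TK1 (-0.14, -0.28 to 0.0029), SAMHD1 (0.10, -0.10 to 0.30) and RRM2 (0.01, -0.08 to 0.11) had intervals that included 0. This split holds for TMM-scaled counts. By FPKM the difference was -0.39 for TK1, -0.38 for RRM2, 0.22 for SAMHD1 and 0.10 for RRM2B, and with total counts it was -0.26, -0.11, -0.02 and 0.27. By TMM-scaled counts, RRM2B, TYMS and DCK had opposite signs in the lines, 3 of 8 genes (37.5%), against 5974 of 13228 genes (45.2%) tested in both lines.

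Ratios of FPKM within a library show how paired enzymes stood to each other. The RRM2 to RRM2B ratio, between the alternative small subunits of the reductase, was 14.9 and 13.0 in SW1990 (unirradiated, then irradiated) and 5.36 and 6.47 in PANC-1 cells. RRM2 thus exceeded RRM2B in every library, and more so in SW1990 cells. The RRM2 to RRM1 ratio was 1.51 and 1.29 in SW1990, and 0.850 and 0.785 in PANC-1 cells. The TK1 to DCK ratio, between the thymidine kinase and the kinase that activates gemcitabine, was 7.26 and 13.1 in SW1990, and 4.25 and 5.99 in PANC-1 cells. It was higher in the irradiated library of both lines. TK1 was higher by FPKM in both, while DCK was lower in SW1990 (7.79 and 5.53 FPKM) and higher in PANC-1 cells (5.84 and 6.93 FPKM). The TYMS to DUT ratio was 14.8 and 21.5 in SW1990, and 4.83 and 5.87 in PANC-1 cells.

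**Figure D3:**
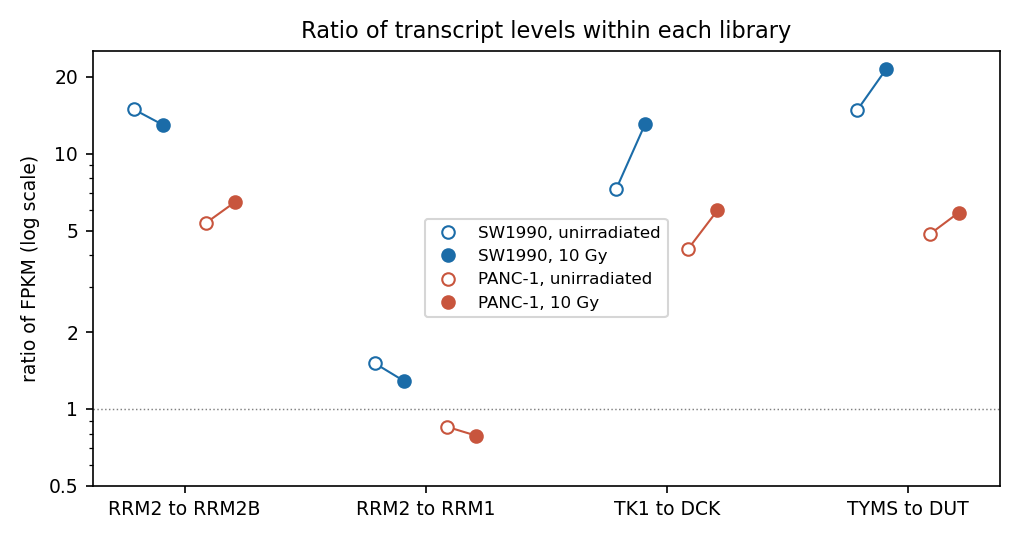
Ratios of FPKM (log axis) between paired genes in the 4 libraries, with open points for unirradiated and filled points for 10 Gy libraries and a dotted line at equal levels. The TK1 to DCK ratio is 7.26 and 13.1 in SW1990 cells, and the RRM2 to RRM1 ratio is above 1 in SW1990 and below 1 in PANC-1 cells.

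The second comparison asked how the lines differed, over both treatments and in the same fit. Of the 9 genes, 6 differed between PANC-1 and SW1990 cells at an adjusted p below 0.05 by edgeR's quasi-likelihood test, 2 higher and 4 lower in PANC-1, against 43.6% of all 18180 genes (22.2% higher and 21.4% lower). The libraries of a line are an irradiated and an unirradiated one, not replicate cultures. RRM2, TYMS, TK1 and SAMHD1 were lower in PANC-1, DUT and TYMP were higher, and RRM1, RRM2B and DCK did not pass. Of the genes called, TYMP met the count filter of the fit only through PANC-1 cells, where it was higher.

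TYMP, the phosphorylase that splits thymidine, differed most. It had 1 and 8 counts in SW1990 and 298 and 239 in PANC-1 cells, groups far apart. The fitted log2 difference was 5.81 with an edgeR adjusted p of 0.00475. TYMP met the count filter of the fit only through PANC-1 cells, where it was higher, so this p adds nothing to the counts. The ratio of scaled counts of PANC-1 over SW1990 cells was 265 (95% counting interval 47.2 to 10510) in the unirradiated pair and 28.9 (14.4 to 67.8) in the irradiated pair. DUT was higher in PANC-1 cells by a log2 difference of 1.201 (edgeR adjusted p = 0.0116), with 0.97 in the unirradiated and 1.44 in the irradiated pair. Both PANC-1 libraries (871 and 779 counts) stood above both SW1990 libraries (397 and 278 counts) in DUT.

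Of the genes lower in PANC-1 cells, SAMHD1 had a log2 difference of -0.88 (edgeR adjusted p = 0.0131) and TK1 one of -0.84 (edgeR adjusted p = 0.0113). RRM2 gave -0.73 (edgeR adjusted p = 0.0134) and TYMS -0.51 (edgeR adjusted p = 0.0390). The unirradiated and irradiated pairs gave -0.82 and -0.94 for SAMHD1, -0.90 and -0.78 for TK1, -0.71 and -0.74 for RRM2, and -0.60 and -0.41 for TYMS, whose counting intervals did not overlap. The call of TYMS was lost (edgeR adjusted p = 0.0741) when genes of low counts were kept and 30227 genes were tested.

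Of the rest, RRM2B was higher in PANC-1 cells in both pairs (0.65 and 0.24) without passing (0.44, edgeR adjusted p = 0.123). RRM1 lay near equal levels, at -0.10 in the unirradiated and 0.18 in the irradiated pair (0.04, edgeR adjusted p = 0.848). DCK had -0.40 in the unirradiated pair (counting interval -0.60 to -0.21) and 0.36 in the irradiated pair (0.14 to 0.57), so that its order between the lines was reversed and the fitted difference was -0.02 (edgeR adjusted p = 0.948). Scaling by total counts moved the median of all genes from 0.00 to -0.15 in this comparison, and with it RRM1 from 0.04 to -0.11.

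**Figure D4:**
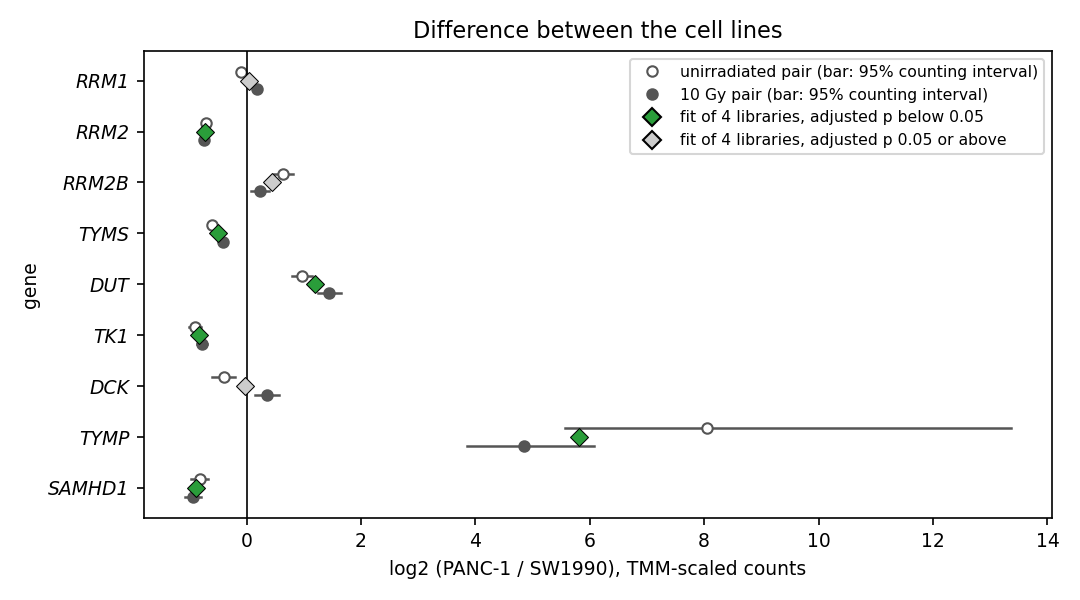
Log2 difference of TMM-scaled counts, PANC-1 over SW1990, for each gene in the unirradiated pair (open circles) and the 10 Gy pair (filled circles), with 95% counting intervals, and in the fit of 4 libraries (diamonds, green where the adjusted p was below 0.05). TYMP lies farthest to the right, and DCK is on opposite sides of 0 in the unirradiated (-0.40) and the 10 Gy pair (0.36).

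Around these genes, 62 others of nucleotide synthesis, salvage, transport and breakdown were listed by role, and all 62 were in the table. In SW1990 cells 54 were tested, 32 higher and 22 lower in the irradiated library, with a median log2 fold change of 0.08 (25 higher, 29 lower and a median of -0.03 by FPKM), and 1 was called, against 4.2% of all genes. In PANC-1 cells 55 were tested, 25 higher and 30 lower, with a median of -0.02, and 1 was called, against 4.77%. In PANC-1 cells the split became 34 higher and 21 lower with total counts and 32 and 23 by FPKM, each with a median of 0.07, and all genes moved alike (57.8% and 56.6% higher, medians 0.07 and 0.07). Relative to the median of all genes, that of the list was -0.0056 by counts under either scaling and 0.0036 by FPKM in PANC-1 cells, and 0.08 by counts under either scaling and -0.0029 by FPKM in SW1990 cells. The gene called in SW1990 cells was DPYD, which starts pyrimidine breakdown and inactivates 5-fluorouracil. It rose from 15 to 57 counts in SW1990 cells (log2 fold change 1.92, 1.08 to 2.85) and had 168 and 215 counts in PANC-1 cells (0.49, 0.19 to 0.79). In SW1990 cells its FPKM was 0.294 and 1.21, so DPYD was tested there only through the irradiated library, where it was higher. The gene called in PANC-1 cells was PAICS of de novo purine synthesis, which rose from 2636 to 6143 counts (1.35, 1.28 to 1.42). Both calls were lost at an assumed coefficient of variation of 0.4, where 15 of all genes in SW1990 and 10 in PANC-1 cells were called. In SW1990 cells PAICS had 10846 and 7677 counts, a log2 fold change of -0.51 (-0.55 to -0.46), in the other direction. In the fit of 4 libraries, an unadjusted edgeR p below 0.05 for radiation was found in 0 of the 57 listed genes fitted. Over all 18180 genes fitted it was found in 833 (4.58%).

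Among 16 other genes of deoxynucleotide synthesis and the thymidylate cycle, 15 were tested in each line, 10 higher and 5 lower in irradiated SW1990 cells and 6 higher and 9 lower in PANC-1 cells. By FPKM 6 were higher and 9 lower in SW1990 cells, the reverse of the majority by counts. CMPK1, which phosphorylates the monophosphates of cytidine analogs, had 1336 and 962 counts in SW1990 (-0.48) and 1778 and 1640 in PANC-1 cells (0.01). MTHFD2, of mitochondrial folate metabolism, had 12475 and 7384 counts in PANC-1 (-0.63, and -0.35 by FPKM) and 0.08 in SW1990 cells (-0.15 by FPKM). SHMT2, which feeds the same folate pathway from serine, was lower in both irradiated libraries (-0.25 and -0.37). The mitochondrial thymidine kinase TK2 gave -0.04 in SW1990 and -0.59 in PANC-1 cells (-0.20 and -0.15 by FPKM).

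In de novo synthesis, 5 pyrimidine and 14 purine genes were tested in each line. Of the purine genes 5 were higher and 9 lower in irradiated SW1990 cells, and 8 higher and 6 lower in PANC-1 cells (10 and 4 with total counts, 9 and 5 by FPKM). DHODH, the mitochondrial enzyme of pyrimidine synthesis, had 297 and 194 counts in SW1990 (-0.62) and -0.21 in PANC-1 cells. CTPS1, which makes CTP, gave 0.09 and -0.35, and UMPS, which completes UMP, gave 0.02 (-0.22 by FPKM) and 0.33. PRPS2, which makes the activated ribose, gave -0.43 and -0.32 (-0.17 and 0.11 by FPKM, the other direction in PANC-1), and ADSSL1, an adenylosuccinate synthase, had only 58 and 65 counts in SW1990 (0.16) and 22 and 43 in PANC-1 cells (1.10, 0.32 to 1.91). In PANC-1 cells its FPKM was 0.40 and 1.23, so ADSSL1 was tested there only through the irradiated library, where it was higher.

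Of 7 genes of ribonucleoside and base salvage, 5 were higher in irradiated SW1990 and 1 in irradiated PANC-1 cells. With total counts 4 of the 7 were higher in PANC-1 cells, and by FPKM 3 were, beside the shift of all genes given above. Relative to the median of all genes, their median in PANC-1 cells was -0.06 by counts under either scaling and -0.11 by FPKM. ADK, the adenosine kinase, gave 0.44 in SW1990 and -0.13 in PANC-1 cells, and the purine phosphorylase PNP gave 0.31 and -0.07 (0.14 by FPKM in PANC-1). UPP1, the uridine phosphorylase, gave 0.13 and -0.41, and APRT, which salvages adenine, gave -0.02 and 0.23.

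Gemcitabine enters cells through nucleoside transporters. Of these, SLC29A1, the main equilibrative carrier, had 55.7 and 47.4 FPKM in SW1990 and 109 and 117 in PANC-1 cells, and SLC29A2 had 16.97 and 12.7 FPKM in SW1990 and 7.53 and 8.08 in PANC-1 cells. SLC29A1 exceeded SLC29A2 by a ratio of 3.28 and 3.72 in SW1990 and 14.5 in both PANC-1 libraries. Of the concentrative carriers, SLC28A1 had at most 2 counts and SLC28A2 had 0, while SLC28A3 had 61 and 45 counts in SW1990 against 0 in PANC-1 cells. Of the 5 transport and efflux genes tested, SLC29A2 gave a log2 fold change after radiation of -0.40 in SW1990 and 0.01 in PANC-1 cells. The efflux pumps gave 0.38 and 0.00 for ABCC4, 0.27 and 0.28 for ABCC5, and -0.01 and 0.14 for ABCC10.

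Of 12 genes of nucleotide and gemcitabine breakdown, 8 were tested in SW1990 cells, 7 of them higher (6 with total counts or FPKM), and 9 in PANC-1 cells, 4 of them higher (5 with total counts or FPKM). CDA, the deaminase that inactivates gemcitabine, was low, with 12 and 19 counts in SW1990 and 48 and 67 in PANC-1 cells (0.54, 0.87, 1.77 and 2.86 FPKM). NT5C2, a cytosolic nucleotidase, had 4389 and 2487 counts in PANC-1 cells (-0.69) and gave 0.10 in SW1990 cells. It shares 1892 exon bases with CNNM2 on the opposite strand, which had 512 and 834 counts in PANC-1 cells. ADA, the adenosine deaminase, gave 0.61 and 0.17, and NT5M, a mitochondrial nucleotidase, had few counts, 53 and 81 in SW1990 (0.61) and 38 and 21 in PANC-1 cells (-0.73). In PANC-1 cells the FPKM of NT5M was 1.40 and 0.678, so it was tested there only through the unirradiated library, where it was higher.

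**Figure D5:**
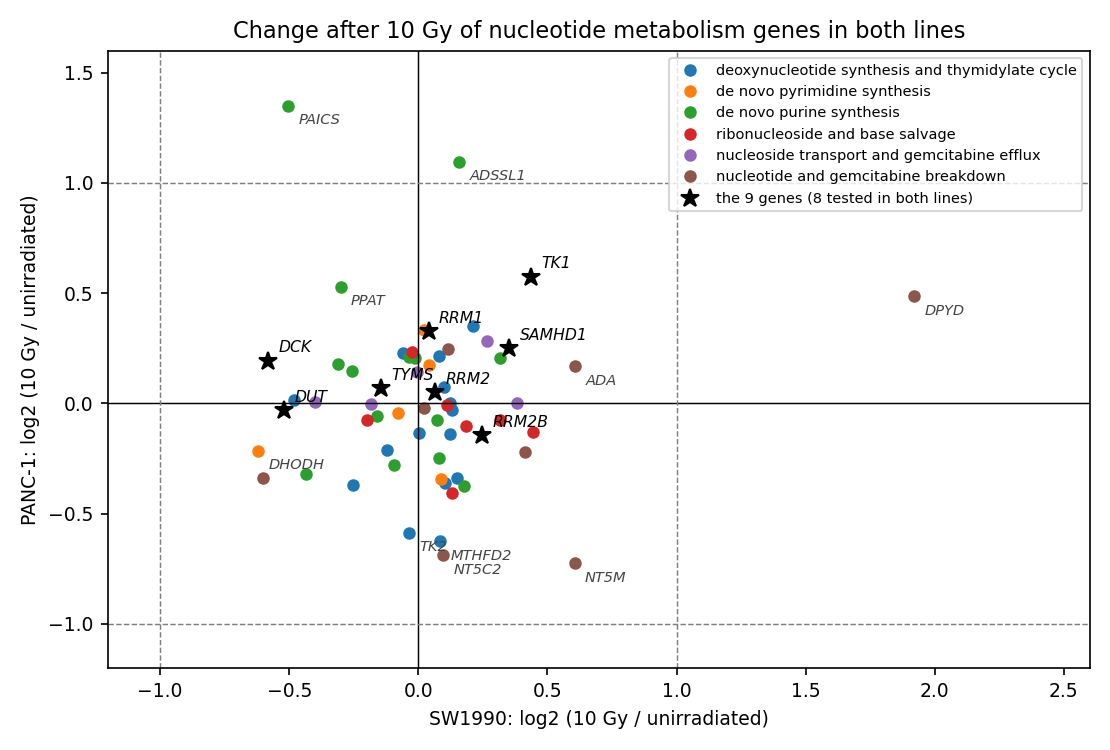
Log2 fold change after 10 Gy of the listed nucleotide metabolism genes in SW1990 (horizontal) against PANC-1 cells (vertical), coloured by role, with stars for the genes of the 9 tested in both lines and dashed lines at a fold change of 2. DPYD (1.92 in SW1990) and PAICS (1.35 in PANC-1) are the genes called, and TK1 and SAMHD1 lie above 0 on both axes. DPYD reached an FPKM of 1 in SW1990 cells only in the irradiated library, where it was higher.

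Between the lines, 30 of the 57 listed genes fitted (52.6%) differed by edgeR's quasi-likelihood test, 13 higher and 17 lower in PANC-1 cells, against 43.6% of all genes. Of 9 genes fitted in the breakdown list, which holds neither SAMHD1 (called lower) nor TYMP (called higher), 5 were called, all higher in PANC-1 cells. They were the ectonucleotidase NT5E (log2 difference 4.99, edgeR adjusted p = 0.00085), DPYD (2.51, 0.0154), ADA (1.94, 0.00407), CDA (1.79, 0.0316) and NT5C2 (1.06, 0.0230). Of the 16 deoxynucleotide and thymidylate cycle genes, 3 were higher and 7 lower, among them SHMT1 (-1.74, edgeR adjusted p = 0.00236), which makes the folate used by TYMS. CMPK2, also among the 7, had 43 and 48 counts in SW1990 and 0 in PANC-1 cells. It met the count filter of the fit only through SW1990 cells. Of 6 transport and efflux genes fitted, 1 was called higher and 3 lower. SLC29A1 was higher (1.33, edgeR adjusted p = 0.00325) in PANC-1 cells, while SLC29A2 (-0.75, edgeR adjusted p = 0.0322) and ABCC4 (-0.62, edgeR adjusted p = 0.0357) were lower. SLC28A3, at 0 counts in PANC-1 cells, was called lower too (edgeR adjusted p = 0.00913). It met the count filter of the fit only through SW1990 cells (61 and 45 counts), so this p adds nothing to the counts.

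Genes of the p53 response and of proliferation were listed for context. CDKN1A, the p53 target that arrests the cycle before S phase, rose from 1229 to 4002 counts in SW1990 cells (1.70, 1.604 to 1.79) and was called, whereas in PANC-1 cells it had 1282 and 782 counts (-0.58, -0.71 to -0.45). GDF15, another p53 target, fell in PANC-1 cells from 8563 to 3611 counts (-1.12, called) and gave 0.34 in SW1990 cells. MDM2 gave 0.70 in SW1990 and 0.22 in PANC-1 cells. By FPKM it gave 0.43 and 0.57, so which line had the larger value depended on the measure. FDXR gave 0.54 and 0.66, ZMAT3 0.34 and 0.41, and SESN1 0.01 and 0.19. RRM2B of the same p53 program gave 0.25 and -0.145. The replication genes PCNA (-0.19 and 0.32) and MCM2 (-0.12 and 0.39) had opposite signs in the lines, and CCNE2 gave -0.09 and 0.51. CDC6 (0.43 and 0.41) and TOP2A (0.35 and 0.35) were higher in both irradiated libraries, beside 0.44 and 0.58 for TK1, and MKI67 was lower in both (-0.14 and -0.21). The median of these 6 proliferation genes was -0.10 in SW1990 and 0.37 in PANC-1 cells, and its part in the values of the 9 genes was not tested.

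The genes whose pattern over the 4 libraries was most like that of each gene were found by the distance between centred log2 levels, among 13524 genes with enough counts. TYMP was left out for low counts. The nearest gene lay at a distance of 0.03 to 0.08 on the log2 scale. For RRM1 the nearest were TBC1D10B, the mitochondrial DNA polymerase POLG and ATPAF2 (0.04 to 0.05), and for RRM2 they were PARP1, the poly(ADP-ribose) polymerase that marks DNA breaks, NCBP1 and ZGRF1 (0.04 to 0.05). For TK1 the nearest were the mucin gene MUC3A (0.08), SULT1A4 (0.09) and the p53 target FDXR (0.10). For SAMHD1 they were PLGRKT, MIGA2 and the spindle checkpoint gene MAD2L1 (each 0.06), for DCK they were RBAK, DNAJC16 and STK11IP (0.07 to 0.09), and for DUT they were SEMA3A, ZFP14 and AL080317.3 (0.03 to 0.05). RRM2B lay nearest to KPNA4, LARP4 and CCS (0.03 to 0.04), and TYMS to ANKRD26, AMZ2P1 and SS18L1 (0.03 to 0.04). Some of these genes had few counts over the libraries, such as MUC3A (31 to 71), SULT1A4 (52 to 123) and PLGRKT (61 to 125). The counting error of the distances was not estimated. The likeness rests on 4 libraries and is a description.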

How the data were processed

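RNA of SW1990 and PANC-1 cells, unirradiated or given 10 Gy, was sequenced with 1 library per group. The deposited table gives, per gene, a read count that the authors did not normalize and an FPKM value that the authors scaled to transcript length and library size. The submitters' processing notes name Trimmomatic 0.36, HISAT2 2.0, StringTie 1.3.3b and GRCh38, and the tool that counted reads is not given in the sources used here. Of 59263 rows, 1089 name no gene (0.453% to 0.635% of counts) and were not used in any test or library size, and 27 gene names turned into dates were restored from identifiers. At these depths 3 counts equal 0.129 to 0.168 CPM. Methods and sample records differ on library type, an mRNA kit against ribosomal RNA depletion.

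Within each line, TMM-scaled counts were compared with edgeR's binomTest (edgeR 4.0.16, R 4.3.3), with a value of 0 set to 0.01 and q-values by Benjamini-Hochberg. This test compares libraries and not conditions, so its p-values are not given. Intervals are exact Clopper-Pearson at 95%, and differences of 2 log2 fold changes have delta-method intervals. All 4 libraries were fitted with edgeR's quasi-likelihood test (cell line and treatment, filterByExpr), with a common coefficient of variation of 0.218, and with DESeq2 1.42.0 and limma 3.58.1 as alternatives. The binomTest within each line and the radiation term of the quasi-likelihood fit were also run on simulated counts. The cell line term, DESeq2, limma and exactTest were not.

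The genes and lists were chosen with earlier results of these data known. The genes named are the 9, the context genes, listed genes called in either line, the 2 listed genes per role and line with the largest log2 fold change, and the 3 nearest genes to each of the 9 but TYMP. Genes named for levels or line differences (SLC29A1, the SLC28 carriers, CDA, NT5E, SHMT1) or for opposite signs in the lines were chosen after their values were seen. The comparisons made by the authors were not used.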

Additional observations from a re-analysis of the deposited data

Results flagged for a closer look

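For 21 of the listed genes, TMM-scaled counts put the irradiated library above the unirradiated one in 1 line and below it in the other, with counting intervals that excluded 0 in both lines or, for DCK, as one of the 9 whatever its interval (it included 0 in PANC-1 cells). All 21 had opposite signs with total counts too, but by FPKM RRM2B, MTHFD2, NME1, ATIC and ADSS had the same sign in both lines. The values are log2 fold changes in SW1990 minus those in PANC-1 cells, and the differences were not tested, since each rests on 1 library per group. Of the 9 genes these were RRM2B (0.39), TYMS (-0.21) and DCK (-0.78). In the folate and deoxynucleotide genes they were DCTD (0.49), MTHFD1 (0.46), MTHFD2 (0.71) and NME1 (0.26), which shares exons with a readthrough gene on its strand. In de novo pyrimidine and purine synthesis they were CTPS1 (0.43), PPAT (-0.83), GART (0.55), PFAS (-0.41), PAICS (-1.86), ATIC (0.33) and ADSS (-0.49). PAICS, the enzyme that follows GART in the pathway, had the largest difference of the listed nucleotide genes. In salvage and breakdown they were ADK (0.57) and NT5E (0.64). Of the context genes they were CDKN1A (2.28), GDF15 (1.46), PCNA (-0.51) and MCM2 (-0.51), and of the cell type markers ZEB1 (2.46), which rested on 14 and 66 counts in SW1990 cells and whose value by FPKM in PANC-1 was -0.0017. Opposite signs with both intervals excluding 0 were found in 13 of 54 listed nucleotide genes (24.1%), 2 of the 8 genes tested in both lines and 1755 of all 13228 genes (13.3%), and intervals narrow with the count. Opposite signs whatever the interval were found in 30 of 54 listed genes (55.6%) and in 45.2% of all genes.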

How the results depend on the processing

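None of the 9 genes was called for radiation in either line under any alternative run (scaling by total counts or DESeq2 size factors, FPKM, no filter, a 1.5-fold limit, an assumed coefficient of variation of 0.1 or 0.4, or exactTest at dispersion 0, which was chosen after seeing the data). A 1.5-fold limit called 1472 genes in SW1990 and 1794 in PANC-1 cells, and 4 listed genes in each line, while a coefficient of variation of 0.4 called 15 and 10 genes and 0 listed ones. In PANC-1 cells the split of calls moved from 367 higher and 356 lower to 462 and 282 with total counts and to 414 and 268 with FPKM, where the median of all genes was 0.07. DESeq2 called 39 genes for radiation in the fit of 4 libraries, against 0, and the cause was not tested. Without the filter on low counts, 5 in place of 6 of the 9 genes differed between the lines, TYMS being lost. Leaving out 1 library leaves no residual degrees of freedom, so only values follow. For radiation they ran from -0.14 to 0.27 for RRM2B, -0.12 to 0.069 for TYMS, -0.55 to 0.19 for DCK and -0.19 to 1.77 for TYMP, which was -0.14 with no cell line term. Between the lines they ran from -0.0875 to 0.17 for RRM1, -0.39 to 0.35 for DCK and, for the called TYMP, from 4.56 without either of SW1990 unirradiated and PANC-1 unirradiated to 6.52 without either irradiated library, and RRM1 was -0.11 with total counts. No replicate block could be fitted because the labels give no replicate numbers. The cell line term pairs the libraries of a line, and without it TK1 had an unadjusted edgeR p of 0.376 in place of 0.0157. Tallies of higher and lower genes, and differences between the lines, with total counts and FPKM were added after seeing the data. Depth limits TYMP in SW1990 cells most, at 1 and 8 counts.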
